A study of Mus musculus with 8 samples.

Results

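The genes described here are 10 genes of fatty acid uptake and oxidation: Cd36, Acsl4, Cpt1a, Cpt2, Acadvl, Acadl, Acadm, Hadha, Hadhb and Acaa2. They were chosen by their role in the pathway, with earlier results of these data known. All 10 are among the 25078 gene rows of the deposited tables and among the 12428 genes that had enough counts to be tested. Messenger RNA was measured in 8 libraries of mouse donor T cells, which were taken from recipient spleens 6 days after allogeneic hematopoietic cell transplantation (HCT) and sorted as H-2Kb+ TCRb+ cells that were CD4+ or CD8+. The donors were C57BL/6 mice, either wild type (WT) or Stat3 fl/fl with CD4-Cre (STAT3KO), which with the CD4 and CD8 sorts gave 4 groups of 2 libraries. All recipients were lethally irradiated wild-type BALB/c mice, and all also received T cell-depleted bone marrow from WT C57BL/6 donors. CD4-Cre is active in developing T cells that give rise to both the CD4 and the CD8 lineage, so Stat3 is deleted in both. Each library pooled cells of several recipients, so the p-values below measure the spread between pools.

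Long-chain fatty acids enter a cell with the help of membrane proteins such as CD36 and are activated to acyl-CoA by acyl-CoA synthetases such as ACSL4. Carnitine palmitoyltransferases 1 and 2 carry the acyl group into the mitochondrial matrix, where the β-oxidation cycle shortens it: an acyl-CoA dehydrogenase makes a double bond, the mitochondrial trifunctional protein hydrates, oxidizes and cleaves long chains, and the thiolase ACAA2 cleaves shorter ones. In T cells this pathway is best known from resting, memory and regulatory cells, while activated effector cells lean on glycolysis, and alloreactive T cells have been described to use both. The study followed CD36 and CPT1A protein in donor T cells, and the comparison of STAT3KO with WT libraries asks how the transcripts of the pathway behave in the spleen when donor T cells lack STAT3.

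Hadha and Hadhb encode both subunits of the trifunctional protein and are neighbours on chromosome 5. They are shown because they start head to head, Hadha on the minus and Hadhb on the plus strand, 273 bases apart in the RefSeq promoter table (build GRCm38.p6), and yet had very different levels below. The stretch between the start sites, chr5:30154980-30155253, is printed 5′ to 3′ on the plus strand, with 274 bases, 60.2% G or C and 19 CpG. Capitals mark its match to the STAT site TTCNNNGAA, in which N is any base.
Hadha-Hadhb: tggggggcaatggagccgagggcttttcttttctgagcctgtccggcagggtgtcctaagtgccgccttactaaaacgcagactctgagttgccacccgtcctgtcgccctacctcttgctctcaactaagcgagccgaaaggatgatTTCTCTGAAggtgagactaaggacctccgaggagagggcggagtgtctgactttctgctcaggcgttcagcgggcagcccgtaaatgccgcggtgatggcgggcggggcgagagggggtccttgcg

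RefSeq promoters of 300 bases (250 before to 50 after the start) were found for 9 of the 10 genes. TTCNNNGAA occurs in those of Cpt2, Hadha and Hadhb, and the match of Hadha and Hadhb is the same one, since their promoters share 228 bases. Of all 32851 mouse promoters, 8.3% hold it. The estrogen-related receptor site TNAAGGTCA (1.28% of all promoters) and 2 copies of AGGTCA in the same direction with 1 base between them, the form bound by PPAR with RXR (0.04%), were found in 0 of the 9. A single AGGTCA, which every such pair contains, was found in Cd36, Cpt1a, Acadvl and Acadm, and in 16.26% of all promoters. All motifs were searched on both strands, and a match is a description of the letters and not of binding.

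Hadhb also has near-identical copies elsewhere in the genome, which bears on how its reads can be counted. Of the 51-base words (the read length) in its annotated transcripts, 57.23% also occur in the processed pseudogenes Gm13910 on chromosome 2 or Gm9108 on chromosome 15 (GENCODE M21). The first 51 coding bases (chr5:30163677-30163727, plus strand, build GRCm38) are printed beside the best match in each copy, with capitals at the position where they differ.
Hadhb: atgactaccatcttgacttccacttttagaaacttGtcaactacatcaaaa
Gm13910: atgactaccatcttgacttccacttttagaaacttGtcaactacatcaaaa
Gm9108: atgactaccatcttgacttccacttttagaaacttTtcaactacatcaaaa

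Over this stretch Hadhb and Gm13910 are identical, and Gm9108 has 1 difference. Of the 1375 words of 51 bases in the coding sequence, 88.9% occur in Gm13910 and 21.2% in Gm9108. A read that matches 2 places equally well has no single gene, and how the authors' counting treated such reads is not given in the sources used here. The counts of Hadhb are therefore uncertain, and the part of this in its level was not tested.

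The libraries held between 20171396 and 23282757 counts, so a gene with 0 counts may still be present at up to 3 counts, or 0.129 to 0.149 CPM (counts corrected for library size), which covers counting error only. Stat3 fell to 32.4% of the WT level in STAT3KO CD4 and to 30.3% in STAT3KO CD8 libraries (edgeR adjusted p = 0.000753 and 0.00536). Cd4 had 1403 to 1597 CPM in CD4 and 1.03 to 8.05 CPM in CD8 libraries, and Cd8a had 805 to 1016 CPM in CD8 and 1.67 to 15.9 CPM in CD4 libraries. In each group, the sum of 12 macrophage and monocyte markers was higher in the library of replicate 2 than in that of replicate 1. The sum of C1qa, C1qb and C1qc, for example, was 36.7 to 58.9 against 3.52 to 9.38 CPM. Not every marker went this way: Itgam was lower in replicate 2 of WT CD4, WT CD8 and STAT3KO CD8, and Cd68 was lower in replicate 2 of STAT3KO CD8. These values return beside Cd36, a gene that macrophages express strongly.

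Levels are compared between genes per exon length, as RPKM, a read density that corrects for exon length and library depth. Over the 8 libraries, Hadha, with a median of 116 RPKM, was the most abundant of the 10 transcripts. Acadl followed with a median of 72.7 RPKM, then Cpt1a with 72.6, Acaa2 with 56.5, Acadvl with 45.8, Acsl4 with 21.6, Acadm with 17.7, Hadhb with 10.5, Cpt2 with 6.19 and Cd36 with 0.835 RPKM. Among all genes tested, the median of Hadha lay at percentile 95.8, that of Cpt2 at 40.6 and that of Cd36 at 17.2.

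The order was not the same in all groups. Hadha was highest and Hadhb, Cpt2 and Cd36 were the 3 lowest in each of the 4 groups, with the place of Hadhb subject to the uncertainty of its counts. In WT CD4 libraries Cpt1a was next after Hadha, and Acadvl, Acaa2 and Acadl, with means of 52.7, 52.5 and 48.6 RPKM, could not be ordered because their libraries overlapped. In WT CD8 and STAT3KO CD8 libraries Acadl came next after Hadha, with means of 88.0 and 87.4 RPKM. Acadm and Acsl4 overlapped in WT CD4 and in WT CD8 libraries, and so did Cpt1a and Acaa2 in WT CD8 libraries.

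**Figure D1:**
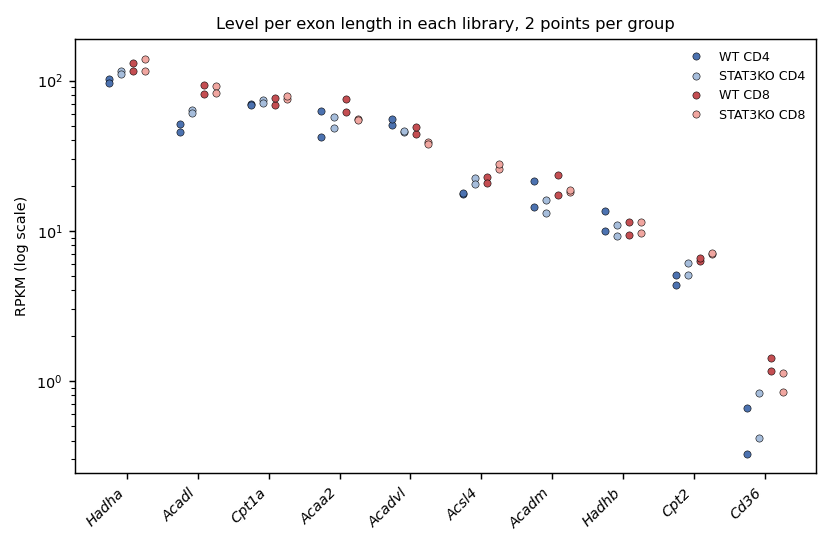
RPKM of the 10 genes (vertical axis, log scale) in each library, with genes ordered by their median over 8 libraries and 2 points per group. Medians run from 116 RPKM for Hadha to 0.835 RPKM for Cd36. Hadhb sits far below its partner Hadha in every group, but its counts are uncertain because of its pseudogene copies.

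Within the trifunctional protein, the RPKM of Hadha was between 7.19 and 14.3 times that of Hadhb in the same library. Of the 51-base words in their transcripts, 0.63% for Hadha and 57.23% for Hadhb also occur in other genes. The counts of Hadhb are therefore uncertain, and the part of this in the ratio was not tested. The libraries of replicate 1 had the higher ratio in every group. Within the carnitine shuttle, Cpt1a, the outer-membrane enzyme usually taken as rate-limiting, had between 10.8 and 15.97 times the RPKM of Cpt2, its partner on the matrix side. The ratio was 15.97 and 13.5 in WT CD4 libraries and 10.9 and 11.5 in WT CD8 libraries, so the groups did not overlap. Among the 3 dehydrogenases, Acadl took 44.4% and 37.3% of the summed RPKM (WT CD4, replicates 1 and 2), 51.9% and 49.5% (STAT3KO CD4), 60.6% and 53.2% (WT CD8) and 61.6% and 59.3% (STAT3KO CD8). Acadvl took 43.2% and 45.1% in WT CD4 and 26.3% and 27.2% in STAT3KO CD8 libraries. These shares are descriptions and were not tested.

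In CD4 T cells, the 10 transcripts differed between STAT3KO and WT libraries by a median absolute log2 fold change of 0.239, beside 0.254 for all genes tested. Of the 10 genes, 0 passed the edgeR quasi-likelihood test at an adjusted p under 0.05, where 11.6% of all genes tested were called. An unadjusted p under 0.05 was reached by 2 of the 10, Acsl4 and Acadl, beside 3415 of the 12428 genes tested. Log2 fold changes lay between -0.27 (Acadm) and 0.38 (Acadl), with a median of 0.15 beside 0.017 for all genes tested, and the libraries of the groups did not overlap for 6 of the 10 genes, where this held for 53.5% of all genes. In CD8 T cells 0 of the 10 genes were called, beside 2.07% of all genes. An unadjusted p under 0.05 was reached by 2 of the 10, Acsl4 and Acadvl, beside 2400 of the 12428 genes tested. Their log2 fold changes lay between -0.38 (Cd36) and 0.31 (Acsl4), with a median of 0.011 beside -0.0071, and groups did not overlap for 5 of the 10 genes, beside 49.7% of all genes.

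**Figure D2:**
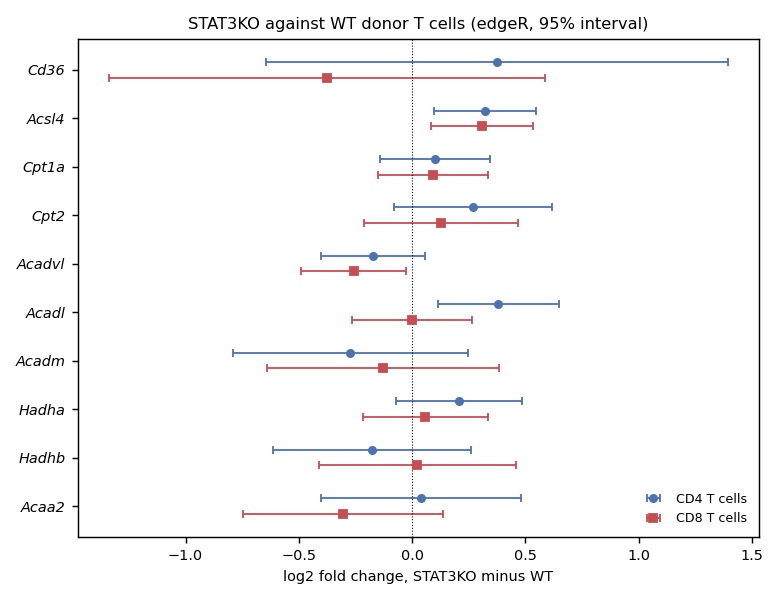
Log2 fold change of each gene, STAT3KO minus WT (horizontal axis), with its 95% interval from the edgeR fit, in CD4 (circles) and CD8 T cells (squares). The intervals leave out 0 for Acsl4 in both cell types, for Acadl in CD4 and for Acadvl in CD8 T cells, and none of these passed the adjusted threshold.

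Between CD8 and CD4 T cells, the median absolute log2 fold change of the 10 genes was 0.320 in WT and 0.280 in STAT3KO T cells, beside 0.316 and 0.250 for all genes. In WT T cells 2 of the 10 genes were called, both higher in CD8 (Acadl and Acsl4), beside 23.8% of all genes, and in STAT3KO T cells 1 was called (Acadl), beside 12.5%. An unadjusted p under 0.05 was reached by 5 and 3 of the 10 genes, beside 4491 and 3416 of the 12428 genes tested. Of the 10 log2 fold changes, 8 in WT and 9 in STAT3KO T cells were above 0, with medians of 0.32 and 0.24 beside 0.0011 and 0.0018 for all genes. Libraries of CD4 and CD8 did not overlap for 7 of the 10 genes in WT and for 7 in STAT3KO T cells, beside 59.3% and 58.3% of all genes. The comparisons within WT and within STAT3KO use the same libraries as the STAT3KO comparisons, so the 4 sets of values are not independent.

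**Figure D3:**
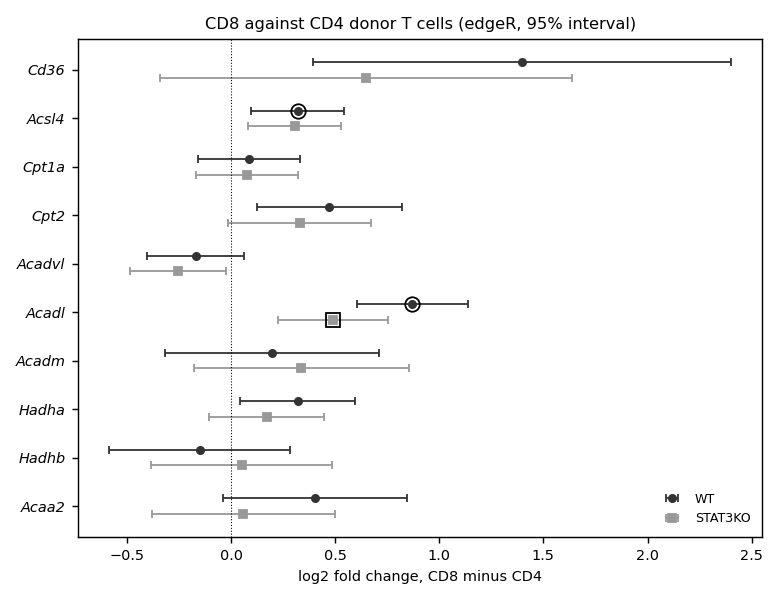
Log2 fold change of each gene, CD8 minus CD4 (horizontal axis), with its 95% interval from the edgeR fit, in WT (circles) and STAT3KO T cells (squares), and outlined symbols where the gene was called. Acadl, at 0.87 and 0.49, is outlined in both genotypes, Acsl4, at 0.32, in WT alone, and Cd36 has the widest intervals.

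In the values by gene that follow, CPM are scaled by the TMM method and given for replicates 1 and 2 of a group. A fall in the level of a transcript in a sorted population can come from fewer cells that hold it or from less RNA per cell, and these cannot be told apart in bulk libraries.

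Cd36 (chromosome 5, 17781690 to 17888959, minus strand), the fatty acid translocase and scavenger receptor, was barely present. It had CPM of 1.30 and 2.55 (WT CD4), 1.65 and 3.34 (STAT3KO CD4), 4.54 and 5.64 (WT CD8) and 3.33 and 4.51 (STAT3KO CD8), from 26 to 134 counts. The replicate 2 library was higher in every group, and both WT CD8 libraries lay above every CD4 library. The libraries of STAT3KO and WT overlapped in CD4 T cells, and in CD8 T cells both STAT3KO libraries lay below the WT libraries. The log2 fold change of STAT3KO against WT was 0.37 in CD4 (SE 0.44, 95% interval -0.64 to 1.39, edgeR adjusted p = 0.646) and for CD8 T cells -0.38 (SE 0.41, interval -1.34 to 0.59, adjusted p = 0.695). The difference of these effects, CD8 minus CD4, was -0.75 (SE 0.60, edgeR adjusted p = 0.928). In CD4 T cells the sign rests on single libraries: the value was -0.057 without WT CD4 replicate 1 and -0.22 without STAT3KO CD4 replicate 2.

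CD8 libraries had more Cd36 than CD4 libraries in both genotypes, by a log2 fold change of 1.40 in WT (SE 0.43, edgeR adjusted p = 0.0519) and 0.65 in STAT3KO T cells (SE 0.43, adjusted p = 0.383), neither of which was called. The WT value was called in 8 of 15 alternatives. Among them were DESeq2, no filter on low counts, the RPKM scale, and a replicate block (an edgeR fit with a term for the replicate number). The others were the fits without WT CD4 replicate 2, STAT3KO CD4 replicate 1 or STAT3KO CD4 replicate 2. Within replicate 1 the log2 fold change was 1.81 in WT and 1.01 in STAT3KO T cells, and within replicate 2 it was 1.14 and 0.44. The 3 C1q genes summed to 5.21 CPM (WT CD4) and 3.52 CPM (WT CD8) in replicate 1, and to 36.7 and 58.9 CPM in replicate 2. In STAT3KO CD4 and CD8 they summed to 9.38 and 7.77 CPM in replicate 1, and to 47.4 and 43.6 CPM in replicate 2. The sum of all 12 macrophage and monocyte markers went another way. In WT CD4 and CD8 it was 64.2 and 158 CPM in replicate 1, and 113 and 261 CPM in replicate 2. It was also higher in CD8 than in CD4 with STAT3KO, in both replicates.

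Of the 12 macrophage and monocyte markers, 11 had counts in WT CD4, STAT3KO CD4 and STAT3KO CD8 and all 12 in WT CD8 libraries. Vsig4 was at 0 except for 1 count in a WT CD8 library. Their sum was CPM of 64.2 and 113 (WT CD4), 112 and 211 (STAT3KO CD4), 158 and 261 (WT CD8) and 193 and 262 (STAT3KO CD8). Itgam, which T cells can also express, had the highest level of the 12 in every library (22.9 to 134 CPM), and Cd68 had 8.70 to 50.9 CPM. The part of macrophage RNA in the level of Cd36 was not tested. Adipocyte markers summed to at most 0.198 CPM and dendritic cell markers to at most 1.82 CPM, and the erythroid list summed to between 0.843 and 7.43 CPM, higher in replicate 2 of each group, with Alas2 at up to 4.72 and Slc4a1 at up to 3.35 CPM and its 4 haemoglobin genes at 0 in every library. Megakaryocyte and platelet markers, whose cells carry CD36 as well, summed to between 1.04 and 2.68 CPM, but to 9.57 CPM in STAT3KO CD8 replicate 2. The endothelial list (144 to 418 CPM) was nearly all Pecam1, which naive T cells express too, and Stab2 came next with 0.540 to 5.09 CPM. In the B cell list (37.3 to 171 CPM), Cd22 had the highest level in every library, followed by Pax5 in WT CD4 (16.8 and 9.89 CPM) and by Cd79b in the other libraries (2.06 to 12.8 CPM).

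**Figure D4:**
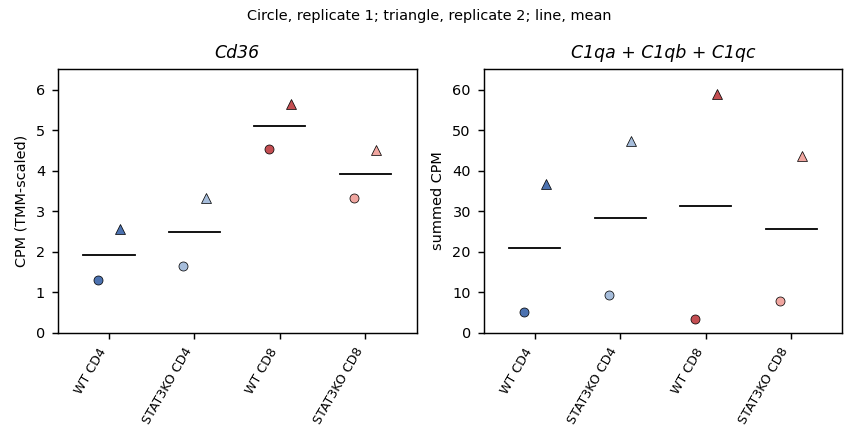
CPM of Cd36 (left) and the summed CPM of C1qa, C1qb and C1qc (right) in each library, with circles for replicate 1, triangles for replicate 2 and a line at the group mean. Both are higher in replicate 2 of each group, and Cd36 is higher in both WT CD8 libraries than in every CD4 library.

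Acsl4 (chromosome X, 142317993 to 142390535, minus strand) encodes an acyl-CoA synthetase with a preference for arachidonic acid, known for supplying the lipids that are oxidized in ferroptosis. It had CPM of 92.8 and 92.8 (WT CD4), 120.3 and 112 (STAT3KO CD4), 121 and 111 (WT CD8) and 138 and 149 (STAT3KO CD8). In each cell type both STAT3KO libraries lay above both WT libraries. The log2 fold change was 0.32 in CD4 (1.25-fold, SE 0.10, edgeR adjusted p = 0.0733) and for CD8 T cells 0.31 (1.24-fold, SE 0.10, adjusted p = 0.139), and neither was called. Of 15 alternatives 1 called each, the edgeR fit with the replicate block (adjusted p = 0.0157 and 0.0278). The difference of the effects was -0.013 (95% interval -0.33 to 0.30). CD8 exceeded CD4 by 0.32 in WT (SE 0.10, edgeR adjusted p = 0.0484), which was called, and by 0.31 in STAT3KO T cells (SE 0.10, adjusted p = 0.0809). The WT call was lost in 13 of 15 alternatives, among them each of the 8 fits without 1 library. It was kept in the other 2, DESeq2 and the replicate block.

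Acsl4 is 1 of 5 long-chain acyl-CoA synthetase genes, which take different shares of the transcripts. Acsl5 was the most abundant, with 83.6 to 130.2 RPKM, and Acsl4 made up between 14.2% and 18.1% of the summed RPKM of the 5 genes. Acsl1 had 1.25 to 3.90 RPKM and Acsl3 and Acsl6 had at most 1.35 and 0.377 RPKM. In CD4 T cells the family moved apart: Acsl5, at 266 and 262 CPM in WT, rose to 338 and 346 CPM in STAT3KO (log2 fold change 0.37, edgeR adjusted p = 0.0461), Acsl1 fell from 12.6 and 15.8 to 5.55 and 6.67 CPM (-1.22, adjusted p = 0.0415), and Acsl3 fell from 3.54 and 5.29 to 0.500 and 0.503 CPM (-3.12, adjusted p = 0.0209). The CD8 values were -0.74 for Acsl1 (edgeR adjusted p = 0.232) and 0.018 for Acsl5 (adjusted p = 0.953), and Acsl3 had 0.0865 to 0.496 CPM in the 4 CD8 libraries. The difference between cell types was not called for any of the 3 (edgeR adjusted p = 0.960 for Acsl1, 0.358 for Acsl3 and 0.559 for Acsl5). The calls in CD4 T cells are not firm. Acsl5 was called in 4 of 15 alternatives. It lost its call with RLE size factors (edgeR adjusted p = 0.0522), no filter (0.117) or the 4 libraries of the comparison alone (0.134). It also lost it in each of the 8 fits without 1 library (log2 fold change 0.35 to 0.37). Acsl1 lost its call in each of the 4 fits without a CD4 library. Acsl3 lost its call without WT CD4 replicate 2, STAT3KO CD4 replicate 1 or STAT3KO CD4 replicate 2. Over the 8 fits without 1 library, log2 fold changes were -1.40 to -1.05 for Acsl1 and -3.41 to -2.81 for Acsl3.

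Cpt1a (chromosome 19, 3323301 to 3385733, plus strand) was among the most even of the 10 genes. It had CPM of 300.4 and 293 (WT CD4), 322 and 314 (STAT3KO CD4), 297 and 333 (WT CD8) and 325 and 346 (STAT3KO CD8). The STAT3KO libraries lay above the WT libraries in CD4 T cells and overlapped with them in CD8 T cells. Log2 fold changes were 0.10 in CD4 (SE 0.10, 95% interval -0.14 to 0.34, edgeR adjusted p = 0.596) and for CD8 T cells 0.092 (interval -0.15 to 0.34, adjusted p = 0.708), so a change of over 1.27-fold in either direction lies outside both intervals. Between CD8 and CD4 they were 0.085 and 0.076 in WT and STAT3KO T cells (edgeR adjusted p = 0.610 and 0.704). Its isoforms Cpt1b and Cpt1c, the muscle and brain forms, had at most 0.183 and 0.0681 RPKM, where Cpt1a had at least 68.6 RPKM.

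Cpt2 (chromosome 4, 107903982 to 107923589, minus strand) was low, with CPM of 10.3 and 11.8 (WT CD4), 12.0 and 14.6 (STAT3KO CD4), 14.8 and 15.8 (WT CD8) and 16.4 and 17.1 (STAT3KO CD8). The 4 groups lay in that order from low to high, with no overlap between neighbours. The steps from WT to STAT3KO were 0.27 in CD4 (SE 0.15, edgeR adjusted p = 0.298) and for CD8 T cells 0.13 (SE 0.15, adjusted p = 0.712), and those from CD4 to CD8 were 0.47 in WT (SE 0.15, adjusted p = 0.0559) and 0.33 in STAT3KO T cells (SE 0.15, adjusted p = 0.198), and none was called. Slc25a20, the carnitine-acylcarnitine translocase that links both enzymes, was the most abundant of the other shuttle genes, with 34.1 to 47.9 RPKM, and differed by 0.13 in CD4 and -0.091 in CD8 libraries (edgeR adjusted p = 0.671 and 0.838). Of the 5 tested genes of the shuttle beyond Cpt1a and Cpt2, 0 were called in either STAT3KO comparison, beside 11.6% (CD4) and 2.07% (CD8) of all genes.

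The acyl-CoA dehydrogenases differ in the chain length they prefer, from very long (Acadvl) and long (Acadl) to medium (Acadm). Acadl (chromosome 1, 66830839 to 66863309, minus strand) had the clearest differences of the 10 genes. It had CPM of 101 and 88.0 (WT CD4), 125 and 121 (STAT3KO CD4), 183 and 162 (WT CD8) and 181 and 165 (STAT3KO CD8). Every CD8 library lay above every CD4 library, and STAT3KO CD4 lay between WT CD4 and the CD8 groups. CD8 exceeded CD4 by 0.87 in WT (1.83-fold, SE 0.11, edgeR adjusted p = 0.00156) and by 0.49 in STAT3KO T cells (1.40-fold, SE 0.11, adjusted p = 0.0315), and both were called. The WT call held in all 15 alternatives, while the STAT3KO call was lost in 4 of 15, each of them a fit without 1 of the STAT3KO libraries (edgeR adjusted p up to 0.182).

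In CD4 T cells Acadl was higher in STAT3KO than in WT by 0.38 (1.30-fold, SE 0.11, 95% interval 0.11 to 0.65, edgeR adjusted p = 0.0738), which was not called. Of 15 alternatives 2 called it, DESeq2 (adjusted p = 0.0447) and the edgeR fit with the replicate block (adjusted p = 0.004). For CD8 T cells it was -0.00028 (interval -0.26 to 0.26). The difference of these effects was -0.38 (95% interval -0.75 to -0.0062, unadjusted p = 0.0471), and with an edgeR adjusted p = 0.625 it was not called. The same was the case for all genes: 0 of 12428 (0.00%) were called for this difference by edgeR, 982 had an unadjusted p under 0.05, and DESeq2 called 188. None of the 10 genes was called for it, and their differences lay between -0.75 (Cd36) and 0.20 (Hadhb), with a median of -0.11 beside -0.020 for all genes.

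Acadvl (chromosome 11, 70010183 to 70015428, minus strand) was lower in both STAT3KO groups than in their WT groups without overlap. Acsl4 and Cpt2 were higher in both without overlap. Of all genes, 53.5% in CD4 and 49.7% in CD8 T cells did not overlap, in either direction. These shares are for each cell type alone. The share of all genes without overlap in both cell types and in the same direction was not computed, so the pattern of these genes has no background here. Acadvl had CPM of 111 and 119.6 (WT CD4), 101 and 103 (STAT3KO CD4), 96.0 and 109 (WT CD8) and 86.6 and 84.7 (STAT3KO CD8). The log2 fold change was -0.17 in CD4 (SE 0.10, edgeR adjusted p = 0.316) and for CD8 T cells -0.26 (SE 0.10, 95% interval -0.49 to -0.025, adjusted p = 0.218), and neither was called. CD8 was lower than CD4 by a like amount, -0.17 in WT and -0.25 in STAT3KO T cells (edgeR adjusted p = 0.264 and 0.146), where most of the other genes were higher. In GENCODE M21, 42.85% of its exon bases are also exon bases of Dvl2 on the opposite strand, while the deposited gene models of Acadvl and Dvl2 lie 73 bases apart. Dvl2 had 245 to 526 counts and Acadvl 1795 to 2580. Whether the counting used the strand is not given in the sources used here, so reads of this stretch cannot be told apart.

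Acadm (chromosome 3, 153922353 to 153944643, minus strand) had CPM of 29.8 and 44.1 (WT CD4), 27.5 and 33.7 (STAT3KO CD4), 35.6 and 49.0 (WT CD8) and 37.6 and 39.7 (STAT3KO CD8). Its replicates differed by up to 1.48-fold within a group (WT CD4), which is more than any difference between group means, and the STAT3KO and WT libraries overlapped in both cell types. Log2 fold changes were -0.27 in CD4 and -0.13 in CD8 libraries (SE 0.22 each, edgeR adjusted p = 0.494 and 0.818). The sign in CD4 T cells turned without WT CD4 replicate 2 (0.030). Of its 51-base words, 3.5% occur in other annotated transcripts (Gm5131 and Gm45703).

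The dehydrogenases hand their electrons to the flavoprotein ETF, whose β subunit gene Etfb was the most abundant of the other mitochondrial oxidation genes. Etfb had RPKM of 58.5 and 70.6 (WT CD4), 69.0 and 77.8 (STAT3KO CD4), 109 and 116 (WT CD8) and 102 and 97.7 (STAT3KO CD8). As for Acadl, every CD8 library lay above every CD4 library. The log2 fold change of CD8 against CD4 was 0.81 in WT (edgeR adjusted p = 0.00266), which was called, and 0.43 in STAT3KO T cells (adjusted p = 0.0547), which was not, but was in 5 of 15 alternatives, among them DESeq2 (adjusted p = 0.0182). Of the 15 other genes of mitochondrial β-oxidation, 0 were called in either STAT3KO comparison, beside 11.6% (CD4) and 2.07% (CD8) of all genes. Between CD8 and CD4, 6 (4 higher, 2 lower in CD8) were called in WT and 1 (higher) in STAT3KO T cells, beside 23.8% and 12.5% of all genes.

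Hadha (chromosome 5, 30119423 to 30154980, minus strand), the α subunit of the trifunctional protein with its hydratase and dehydrogenase activities, had CPM of 282 and 260.3 (WT CD4), 317 and 309 (STAT3KO CD4), 355 and 322 (WT CD8) and 380.3 and 324 (STAT3KO CD8). Its STAT3KO libraries lay above the WT libraries in CD4 T cells and overlapped with them in CD8 T cells. The log2 fold change was 0.21 in CD4 (SE 0.12, edgeR adjusted p = 0.314) and for CD8 T cells 0.058 (SE 0.12, adjusted p = 0.853). CD8 exceeded CD4 by 0.32 in WT (SE 0.12, edgeR adjusted p = 0.0931) and by 0.17 in STAT3KO T cells (adjusted p = 0.412), and none of these was called.

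Hadhb (chromosome 5, 30155253 to 30184593, plus strand), the β subunit with the thiolase activity, had CPM of 20.9 and 27.6 (WT CD4), 19.5 and 23.4 (STAT3KO CD4), 19.6 and 24.1 (WT CD8) and 20.3 and 24.1 (STAT3KO CD8). Replicate 2 was higher in each group, and the libraries of the groups overlapped in all 4 comparisons. Log2 fold changes were -0.18 in CD4 (SE 0.19, edgeR adjusted p = 0.604) and for CD8 T cells 0.022 (adjusted p = 0.969), and between CD8 and CD4 they were -0.15 and 0.050 (adjusted p = 0.615 and 0.905). These are the counts of a gene whose coding words are mostly shared with the pseudogene copies shown above. Log2 fold changes of Hadhb were not tested against those of Hadha.

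Acaa2 (chromosome 18, 74779212 to 74806207, plus strand), the mitochondrial thiolase for medium and short chains, had CPM of 64.0 and 93.1 (WT CD4), 73.5 and 87.9 (STAT3KO CD4), 93.2 and 114 (WT CD8) and 84.3 and 83.9 (STAT3KO CD8). The 4 CD4 libraries were mixed, and in CD8 T cells both STAT3KO libraries lay below both WT libraries. Log2 fold changes were 0.039 in CD4 (SE 0.19, edgeR adjusted p = 0.922) and for CD8 T cells -0.30 (SE 0.19, 95% interval -0.74 to 0.14, adjusted p = 0.444), with a difference of -0.34 (adjusted p = 0.921). CD8 exceeded CD4 by 0.40 in WT (edgeR adjusted p = 0.172) and by 0.059 in STAT3KO T cells (adjusted p = 0.886).

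**Figure D5:**
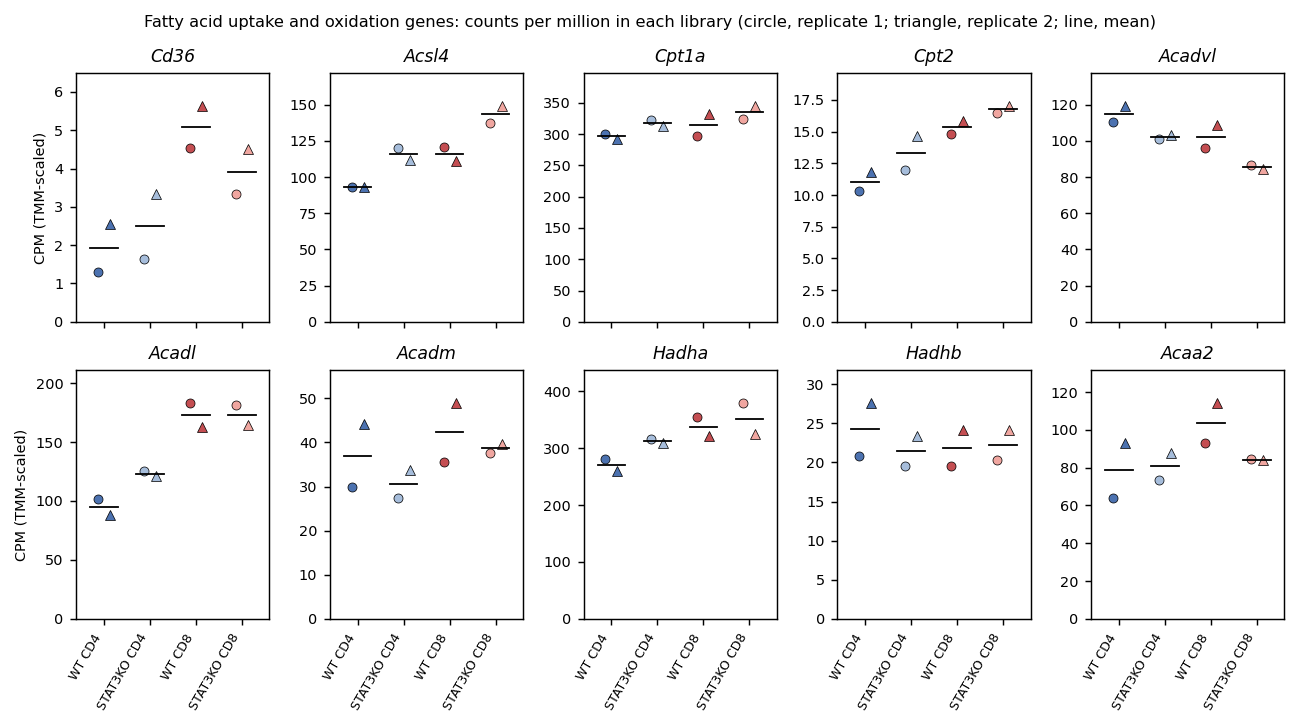
TMM-scaled CPM (vertical axes from 0) of the 10 genes in each library, with circles for replicate 1, triangles for replicate 2 and a line at the group mean. Acadl separates CD8 from CD4 libraries, Acsl4 is higher in STAT3KO than in WT libraries of each cell type, and Cd36, Cpt2, Acadm and Hadhb are higher in replicate 2 of all 4 groups.

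The replicate numbers carried differences of their own. Cd36, Cpt2, Acadm and Hadhb were higher in replicate 2 than in replicate 1 of all 4 groups, and Acadl and Hadha were lower. Of all genes tested, 42.6% had a replicate difference of the same sign in all 4 groups (2490 higher and 2806 lower in replicate 2), so 6 of 10 is near what held for genes at large.

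Around the 10 genes, 72 other genes of fatty acid metabolism were listed by role, and 60 of them had enough counts to be tested. In CD4 T cells 6 of the 60 were called (2 higher and 4 lower in STAT3KO), beside the 11.6% of all genes given above. The 2 higher were Acsl5 and Rxra, and the 4 lower were Acsl1, Acsl3, Fasn and Elovl6. Among CD8 libraries 0 of the 60 were called by edgeR, beside 2.07% of all genes. Of the 60, 7 had an unadjusted p under 0.05, beside 2400 of all 12428 genes tested. DESeq2 called 2 of the 60, beside 885 of all 12428. For the difference of the effects 0 of the 60 were called, with 6 at an unadjusted p under 0.05, beside 0 and 982 of all 12428 genes.

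Fasn and Elovl6 belong to the genes of fatty acid synthesis. All 10 tested genes of fatty acid synthesis had a log2 fold change below 0 in STAT3KO CD4 T cells. Their median was -0.21, beside 0.017 for all genes tested, and the share of all genes below 0 was not computed. Some of these signs rest on very small differences. Elovl5 had mean CPM of 204 in WT CD4 and 202 in STAT3KO CD4. Scd1 had 0.147 and 0.141 CPM, which is near the counting floor given above. Of these 10, 2 were called, beside 11.6% of all genes. In CD8 T cells 7 of 10 lay below 0, with a median of -0.16 beside -0.0071 for all genes tested. Of these, 0 were called, beside 2.07% of all genes. Fasn, the fatty acid synthase, had 229.5 and 209.7 CPM in WT CD4 and fell to 124 and 111 CPM with STAT3KO (a log2 fold change of -0.90 with SE 0.13, edgeR adjusted p = 0.0063). Elovl6, which elongates its product, fell from 31.3 and 40.6 to 8.55 and 10.8 CPM (-1.89, SE 0.25, adjusted p = 0.00389). Elovl6 kept its call in all 15 alternatives, and Fasn lost it without STAT3KO CD4 replicate 2 (-0.83, edgeR adjusted p = 0.0634). Their CD8 values were -0.27 (edgeR adjusted p = 0.319) and -0.91 (adjusted p = 0.0969), of which the second was called in 3 of 15 alternatives, among them DESeq2 (adjusted p = 0.0121), and the differences between cell types were not called (adjusted p = 0.371 and 0.486). Acly, which supplies acetyl-CoA in the cytosol and was the most abundant of this list, was -0.093 and -0.15 (edgeR adjusted p = 0.601 and 0.472).

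Among 9 tested regulators of oxidation, Rxra, the nuclear receptor that pairs with PPARs, rose in CD4 T cells from 28.2 and 20.3 to 51.2 and 48.6 CPM (log2 fold change 1.04, SE 0.16, edgeR adjusted p = 0.00709), a call lost without STAT3KO CD4 replicate 1 (0.98, adjusted p = 0.0568). Among CD8 libraries it had 17.4 and 19.2 CPM with WT and 31.8 and 30.0 CPM with STAT3KO (0.75, SE 0.16, adjusted p = 0.0635), which was not called, but was in 5 of 15 alternatives, among them DESeq2 (adjusted p = 0.00446). Rxrb, the most abundant of this list, was 0.22 and -0.014 (edgeR adjusted p = 0.214 and 0.965). Of the peroxisomal β-oxidation genes, 0 of 10 were called in either cell type, beside 11.6% (CD4) and 2.07% (CD8) of all genes. Crot, the carnitine octanoyltransferase and the most abundant of these 10, was 0.13 and 0.20 (edgeR adjusted p = 0.463 and 0.347). Dbi, the acyl-CoA binding protein and, after Acsl5, the most abundant of the transport and activation genes by median RPKM, was 0.44 and 0.24 (edgeR adjusted p = 0.0861 and 0.406).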

How the data were processed

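The authors aligned single-end reads of 51 bases to the mouse genome mm10 with STAR, counted them per RefSeq gene with HTSeq, and deposited a table of raw read counts and a table of RPKM values (read densities corrected for exon length and library depth), each with 25078 gene rows for 8 libraries. Versions of these tools are not printed here. The library kit differs between the labels (SMARTer) and the study's methods (KAPA, stranded), and the growth and treatment labels, which belong to an adipogenic culture and not to spleen T cells, were not used. Groups were taken from the titles and the genotype and cell type labels.

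The deposited counts were filtered with filterByExpr at a minimum count of 10 in the groups. This kept 12428 genes, with at least 99.96% of each library's counts, and TMM scaling followed. All 8 libraries entered 1 fit with a mean per group in edgeR 4.0.16 (R 4.3.3), and genes were called by its two-sided quasi-likelihood test at a Benjamini-Hochberg adjusted p under 0.05 over all 12428 genes. Standard errors and 95% intervals were derived from its F statistic. Marker sums are CPM by column total, without TMM. The alternatives were DESeq2 1.42.0, RLE size factors, no filter, a replicate block, the 4 libraries of a comparison alone, limma 3.58.1 on log2(RPKM + 1) and log2(RPKM + 0.1), and leaving out each library. The fits were also run on simulated counts drawn without a replicate effect. Such counts cannot show how the fits behave where replicate differences are shared between groups. The counts of the 2 libraries of a group differed by far more than sampling noise (chi-square 23.0 to 65.9 times its degrees of freedom), so each was counted as a sample.

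Coordinates of genes are those of the deposited tables. Promoters came from RefSeq (GRCm38.p6) and transcripts, exons and 51-base words from GENCODE M21, on the same GRCm38 assembly as mm10. The genes named beyond the 10 are those of the other lists that were called in a STAT3KO comparison, the most abundant of each list, Stat3, Cd4, Cd8a and leading markers of other cells, with the C1q genes, Vsig4, Pax5, Dbi, Cpt1b, Cpt1c and Acsl6 added after their values were seen. The members and lists were chosen with earlier results of these data known. Protein sequences were not used here.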

Additional observations from a re-analysis of the deposited data

How the results depend on the processing

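Of 1121 alternative log2 fold changes of the 10 genes, Stat3 and 12 other fatty acid genes, 1012 kept their direction and their side of the threshold. Of the rest, 37 lost a call, 37 gained one and 35 turned sign, and 0 of those that turned sign were called. The 1012 include 5 values of Cd36 from the replicate 1 libraries alone, which have no test and no threshold. These kept their direction and lay within the SE of the main value. Of the 10 genes, 0 were called in CD4 T cells (STAT3KO against WT) in most alternatives, 1 (Acadl) by DESeq2 and 2 (Acsl4 and Acadl) with the replicate block, and in CD8 T cells 1 (Acsl4) with the block. For CD8 against CD4 in WT T cells the count of 2 became 1 with RLE size factors or the 4 libraries alone, 6 with the block, and 1 to 3 in fits without 1 library. In STAT3KO T cells the count of 1 became 3 with the block, and 0 to 1 without 1 library.

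The replicate number may mark a shared batch, but the labels do not say so and each comparison has 2 pairs, so the block was kept as an alternative. Replicate differences correlated between groups (Pearson r 0.424 to 0.671 over 12428 genes, which are not independent). The block raised the calls over all genes to 3747, 2258, 403, 5232 and 3689 (from 1444, 257, 0, 2960 and 1555, in the order of the 2 STAT3KO comparisons, their difference, and CD8 against CD4 in WT and STAT3KO T cells), among them all genes called without it. With it, Acsl4 had an adjusted p of 0.0157 and 0.0278 and Acadl of 0.0040 in CD4 T cells, beside 30.1% and 18.2% of all genes called. Cd36, Cpt2, Hadha and Acaa2 were added in WT CD8 against CD4 T cells (adjusted p 0.00108, 0.0110, 0.00799 and 0.0141), and Acsl4 and Acadvl in STAT3KO T cells (0.0183 and 0.0369). The difference of the effects was called with the block for Acsl3, Fasn and Elovl6 (adjusted p 0.0369, 0.024 and 0.0103). In the closing lists of other fatty acid genes, the 6, 0, 0, 16 and 6 calls became 15, 6, 3, 28 and 17 with the block. In CD8 T cells DESeq2 and no filter each called 2, and WT CD8 against CD4 gave 9 with the 4 libraries alone. Without 1 library these counts lay between 2 and 5, 0 and 1, 0 and 0, 9 and 13, and 0 and 7.

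Some values turned sign. Without 1 library, STAT3KO against WT in CD4 T cells ranged from -0.22 to 0.93 for Cd36, -0.56 to 0.030 for Acadm, -0.39 to 0.031 for Hadhb, -0.23 to 0.33 for Acaa2 and -0.083 to 0.35 for Slc25a20. In CD8 T cells it ranged from -0.093 to 0.081 for Acadl (0.00065 with the block), -0.35 to 0.11 for Acadm, -0.063 to 0.16 for Hadha, -0.13 to 0.17 for Hadhb, -0.52 to 1.93 for Acsl3, -0.032 to 0.052 for Acsl5, -0.26 to 0.083 for Slc25a20 and -0.086 to 0.041 for Rxrb. The difference of the effects of Acsl4 ranged from -0.071 to 0.060, and was 0.0028 without a filter and 0.0072 and 0.0051 on the log2(RPKM + 1) and log2(RPKM + 0.1) scales. CD8 against CD4 ranged from -0.0091 to 0.15 for Cpt1a, -0.079 to 0.49 for Acadm and -0.36 to 0.050 for Hadhb in WT, and from -0.084 to 0.17 for Hadhb and -0.064 to 0.18 for Acaa2 in STAT3KO T cells. For Cd36, the libraries of replicate 1 alone, chosen after seeing the data, gave 0.35 in CD4, -0.45 in CD8 and -0.80 for their difference, without a test. Fits without 1 library assume that the lone sample of a group varies like the others. For each change the cause was not tested, beyond the fewer samples that a fit without 1 library holds. Of the 10 genes, Cd36 had the fewest counts (26 to 134 a library).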
